A study of Mus musculus with 54 samples.

Results

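Apoe, Axl and Lyz2 were examined as 3 of the 33280 gene symbols counted in each table, of which 26332 had a count in at least 1 of 54 libraries. They were chosen by a difference measured in these libraries: repopulated microglia (MG), sorted after BLZ945 treatment and LPS, were compared with MG of mice given vehicle and LPS, and genes called in that contrast were picked. The size of that difference in those MG is therefore given below as a description, without a test. All 3 genes had more than 3 counts in each of the 54 libraries and passed the low-count filter of each fit.

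Apoe encodes apolipoprotein E, a lipid carrier that macrophages and astrocytes secrete and that binds lipoprotein receptors on cells and Trem2. Axl encodes a receptor tyrosine kinase of the TAM family (Tyro3, Axl, Mertk), which binds phosphatidylserine on dying cells through the bridging ligands Gas6 and protein S. Lyz2 encodes the lysozyme of macrophages and neutrophils, an enzyme that cleaves bacterial cell walls and a common marker of myeloid cells. Apoe and Axl belong to the program that microglia enter around amyloid plaques and in demyelination.

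The study asked how MG and sdCAMs (subdural CNS-associated macrophages, which line the leptomeninges and vessels) respond to systemic endotoxin after they have been depleted and have repopulated. Brains without choroid plexuses came from 3 lines: wild-type (WT) mice, mice labelled Ccr2-/-, for the chemokine receptor through which monocytes leave the bone marrow, and Ccr2CreERT2/CreERT2:R26tdT/tdT reporter mice (Ccr2Cre). WT and Ccr2-/- mice each gave MG and CD206+ sdCAMs in 3 conditions: untreated with PBS, vehicle (CTL) with LPS, and BLZ945, which blocks the CSF1 receptor and so depletes MG and sdCAMs, with LPS. Ccr2Cre mice were all treated with BLZ945 and then received LPS or PBS. They gave MG, tdT+ sdCAMs and tdT- sdCAMs, tdT being the fluorescent protein that 2 mg tamoxifen per injection switches on in cells expressing Ccr2. LPS or PBS was given 8 weeks after depletion and cells were sorted 12 h later. Each of the 18 groups held 3 libraries, and MG and sdCAMs came from the same 24 mice. Ccr2Cre mice formed a batch of their own and had no group without BLZ945. The genotype label of Ccr2Cre mice carries the Cre on both Ccr2 alleles. WT and Ccr2-/- mice were separate colonies, so genotype and colony cannot be told apart. The study corrected the data of these lines for batch (ComBat-seq), and no such correction was made here.

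Library totals ran from 1705930 to 7699790 counts in WT sdCAMs, from 7887891 to 10727796 in Ccr2-/- sdCAMs and from 7497764 to 11330781 in MG. Untreated sdCAMs had 1929070 to 3049028 counts in WT and 8124128 to 8929948 in Ccr2-/- mice, so depth and line cannot be told apart there. Levels are CPM, counts divided by the library total and scaled to a total of 1000000. Where groups are said not to overlap, this is a description and no test, and its share over all genes is not given. The biological spread that edgeR estimated over all genes, as a coefficient of variation, was lowest for MG of WT (0.257) and Ccr2-/- mice (0.264), followed by sdCAMs of Ccr2-/- mice (0.453), and reached 0.7 for WT sdCAMs, 0.713 for Ccr2Cre sdCAMs and 0.81 for Ccr2Cre MG. Ccr2 itself was lower in the Ccr2-/- libraries than in WT only in untreated sdCAMs (2.462 to 5.594 against 16.83 to 42.96 CPM), whereas in MG the lines overlapped in each condition, so MG are called Ccr2-/- by their labels. Among sdCAMs, 6 WT libraries carry a mark for an IEG correction that the labels do not explain: CTL mice 1, 4 and 6, untreated mice 9 and 14, and BLZ945 mouse 12. The tdT+ library of LPS mouse 5 stood apart, with 8 microglial markers summing to 13290 CPM against 818.8 to 907.2 CPM in the other 2 libraries of its group, and 8 sdCAM markers summing to 1176 CPM against 6857 to 7730 CPM. The sequencing index numbers of a pair of LPS libraries, mouse 1 tdT- and mouse 7 tdT+, are swapped between the column names and the labels. Member values that rest on mouse 5 or on the pair are given without mouse 5 or with the pair exchanged beside the results.

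The promoters are shown because the 3 genes were picked by the same contrast, not for moving together. The sequences are RefSeq's for GRCm38.p6, from 250 bases before the annotated start to 50 bases after it, on the minus strand for each gene. All 3 members were matched to the promoter table by symbol. Capitals mark the motifs that were found, GGGCGG (GC box) in Axl and TTGCNNAA (C/EBP, read on the opposite strand) in Lyz1, a paralog of Lyz2 in the same region. The build of the count tables was not settled, and no count is tied to these coordinates.
Apoe, chr7:19699139-19699438: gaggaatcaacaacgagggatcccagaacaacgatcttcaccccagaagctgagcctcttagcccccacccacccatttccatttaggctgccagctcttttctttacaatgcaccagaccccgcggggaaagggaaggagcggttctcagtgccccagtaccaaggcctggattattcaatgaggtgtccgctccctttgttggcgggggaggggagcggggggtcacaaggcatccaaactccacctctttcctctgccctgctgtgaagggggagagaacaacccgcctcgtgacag
Axl, chr7:25788684-25788983: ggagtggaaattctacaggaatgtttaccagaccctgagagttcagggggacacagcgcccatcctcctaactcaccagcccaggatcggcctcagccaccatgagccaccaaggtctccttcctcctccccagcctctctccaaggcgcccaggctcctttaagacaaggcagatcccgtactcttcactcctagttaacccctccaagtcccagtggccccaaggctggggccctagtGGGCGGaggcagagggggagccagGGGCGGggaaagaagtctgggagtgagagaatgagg
Lyz2, chr10:117282223-117282522: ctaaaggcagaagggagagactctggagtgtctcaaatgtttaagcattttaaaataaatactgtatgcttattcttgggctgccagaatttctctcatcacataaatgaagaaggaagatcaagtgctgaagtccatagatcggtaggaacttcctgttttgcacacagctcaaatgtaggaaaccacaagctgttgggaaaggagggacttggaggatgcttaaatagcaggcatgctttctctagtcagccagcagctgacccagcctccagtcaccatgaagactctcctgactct
Lyz1, chr10:117292819-117293118: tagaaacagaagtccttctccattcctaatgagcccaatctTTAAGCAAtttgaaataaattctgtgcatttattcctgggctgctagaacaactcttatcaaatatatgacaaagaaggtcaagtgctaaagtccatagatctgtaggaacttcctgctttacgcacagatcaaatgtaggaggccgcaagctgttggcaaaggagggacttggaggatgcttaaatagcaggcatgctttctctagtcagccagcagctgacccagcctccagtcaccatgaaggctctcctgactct

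The following 8 motifs were searched on both strands of each window: GAGGAAGT for PU.1, CCGGAAGT for other ETS factors, TGANTCA for AP-1, TTGCNNAA for C/EBP, GGGCGG for the GC box, TATAAA for the core promoter box, and the NF-kB and interferon response elements. The PU.1 and ETS motifs overlap in their last 6 letters. Over all 32851 promoters, 3.202% hold the PU.1 motif, 3.887% the ETS motif, 7.808% AP-1, 10.8% C/EBP, 13.62% the core box, 0.4109% NF-kB and 3.443% the interferon element. Axl held 2 GC boxes, which start 10 bases before and 15 bases after the start, and 35.66% of all promoters hold at least 1. Apoe and Lyz2 held none of the 8 motifs in these windows, and no motif was common to the 3 members. GC content was 57.67% for Apoe, 60.33% for Axl and 44.33% for Lyz2. Lyz2 and Lyz1 shared 254 of 310 aligned columns (81.94%), and 195 of 1267 windows of 50 bases in the Lyz2 transcript (15.39%) also occur in Lyz1. Reads from those windows cannot be assigned to one of the pair. Lyz1 itself was at or under 0.8907 CPM in every MG library, so Lyz2 counts in MG hold few reads that were also counted as Lyz1.

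In WT MG after LPS, BLZ945-treated mice had about 2.55 times as much Apoe, 4.37 times as much Axl and 2.11 times as much Lyz2 as CTL mice. Apoe stood at 418.5, 373.3 and 390.4 CPM in BLZ945 mice 8, 11 and 12 and at 181.8, 165.9 and 128.3 CPM in CTL mice 1, 4 and 6. Axl stood at 144, 141 and 160.3 CPM against 45.03, 24.89 and 34.41 CPM. Lyz2 stood at 381.6, 316 and 340.3 CPM against 187.7, 158.8 and 157.4 CPM. For each gene the lowest BLZ945 library lay above the highest CTL library, in libraries that had served to choose the genes. The log2 fold changes were 1.35 (SE 0.181) for Apoe, 2.13 (SE 0.305) for Axl and 1.08 (SE 0.149) for Lyz2.

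In Ccr2-/- MG the same contrast had the same direction for all 3 genes. Apoe stood at 571.7, 653.5 and 532.5 CPM after BLZ945 and LPS and at 245, 256.3 and 317.2 CPM after CTL and LPS. Axl stood at 110.8, 78.9 and 123.6 CPM against 25.86, 42.48 and 38.06 CPM. Lyz2 stood at 501.4, 488.6 and 431.8 CPM against 242.4, 242 and 278.2 CPM. Again no BLZ945 library overlapped a CTL library, and these libraries too had served the choice. The log2 fold changes were 1.15 (SE 0.164) for Apoe, 1.60 (SE 0.291) for Axl and 0.95 (SE 0.149) for Lyz2.

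A gene was called where edgeR gave an adjusted p under 0.05 and the log2 fold change exceeded 1 in either direction. In WT MG this rule called 9 of 11789 genes (0.0763%), 7 higher and 2 lower. The other higher genes were Ak1 (log2 fold change 1.11), Cd36 (3.12), Cspg4 (4.36) and Fn1 (1.76), and the lower ones Mrc1 (-2.67) and Pecam1 (-2.15). In Ccr2-/- MG it called 2 of 11558 genes (0.0173%), Apoe and Ptger3, which had 0 counts in every BLZ945 library, so that Apoe was the only gene called in both lines. Just inside the limit on adjusted p in WT MG were Mrc1 and Ak1, and just outside it P2ry14 (2.79) and Ptger3, again with 0 counts in every BLZ945 library. In Ccr2-/- MG, Serpinf1 (-1.25) and Pecam1 (-1.60) lay just outside. The number of calls moved with the method, since DESeq2 called 49 genes in WT and 27 in Ccr2-/- MG. Fits without 1 library called 0 to 13 genes in WT and 0 to 12 in Ccr2-/- MG. The fold changes of the members moved less in those fits, between 1.21 and 1.47 for Apoe, 1.93 and 2.38 for Axl and 1.00 and 1.18 for Lyz2 in WT MG.

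**Figure D1:**
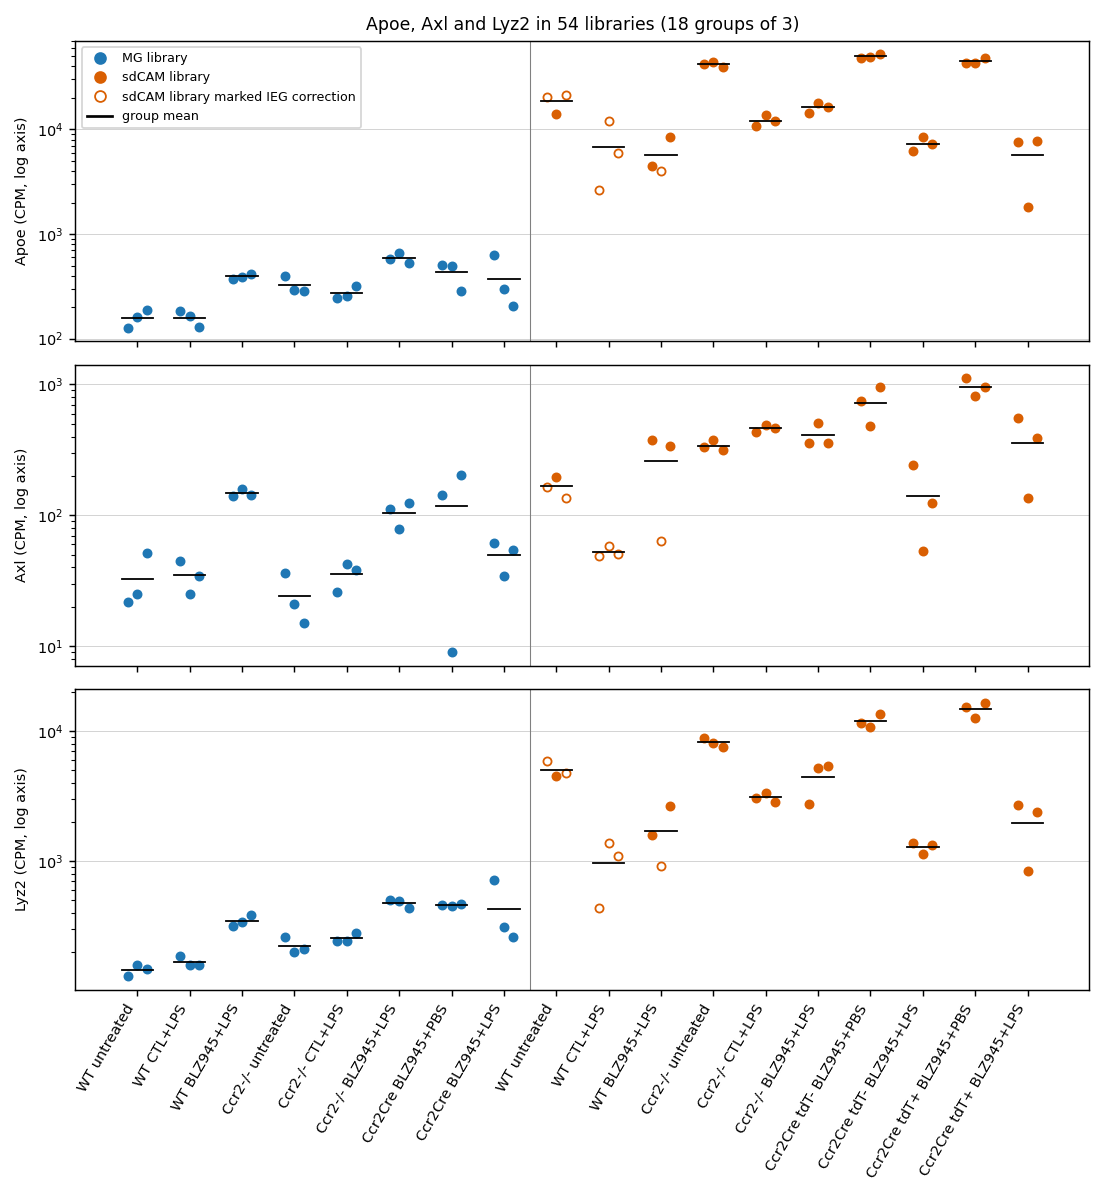
Each point is 1 library, with its level in CPM on a log axis, for the 8 MG groups (left) and the 10 sdCAM groups (right) of 3 libraries each; bars are group means and open circles are libraries with the IEG mark. In WT and Ccr2-/- MG the 3 BLZ945+LPS libraries lie above the untreated and CTL+LPS libraries for each gene, and every Apoe library of sdCAMs (1815 CPM or more) lies above every MG library (653.5 CPM or less).

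In MG of mice that were never depleted, the levels of each member after CTL and LPS overlapped those of untreated mice in both lines. Untreated mice are not labelled as having had the vehicle, so vehicle and LPS cannot be told apart here. Untreated WT MG held Apoe at 187.8, 127 and 159.5 CPM, Axl at 51.48, 21.9 and 25.13 CPM and Lyz2 at 148.6, 130.8 and 159.6 CPM, in mice 9, 14 and 15. The ranges overlap those of CTL+LPS mice for all 3 genes. The log2 difference between CTL+LPS and untreated WT MG was -0.09 (SE 0.178) for Apoe, 0.00 (SE 0.3) for Axl and 0.11 (SE 0.148) for Lyz2. In Ccr2-/- MG it was -0.31 (SE 0.162), 0.50 (SE 0.292) and 0.12 (SE 0.148). The CTL+LPS libraries had served to choose the genes, so no test is given.

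Set against untreated mice, BLZ945+LPS MG of WT mice differed by log2 values of 1.26 for Apoe, 2.13 for Axl and 1.19 for Lyz2, and those of Ccr2-/- mice by 0.84, 2.10 and 1.07. The comparisons with CTL and with untreated mice share the BLZ945 libraries and are not independent. A group of repopulated MG without LPS was not included in WT or Ccr2-/- mice, so in these lines the contribution of depletion and that of LPS after depletion cannot be told apart.

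The genes with which these 3 proteins work did not pass the rule in the contrast that chose the members. In WT and Ccr2-/- MG after BLZ945 and LPS against CTL and LPS, 0 of 10 tested apolipoprotein and lipid efflux genes, 0 of 9 Apoe receptors and partners, 0 of 8 TAM receptors and ligands, 0 of 6 lysozyme genes and myeloid regulators and 0 of 18 genes of the disease-associated microglial program were called, the members themselves left out. Against a share of 0.0763% and 0.0173% over all genes, counts of 0 say little about lists of this size. The median log2 differences were 0.29 in WT and 0.14 in Ccr2-/- MG for the disease-associated list and between -0.16 and 0.21 for the other 4. Over all genes tested the medians were -0.01 and 0.00.

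Markers of other cells were read in the same MG libraries. The 8 microglial markers, P2ry12, Tmem119 and Sall1 among them, exceeded 3 counts in every library and summed to 9776 to 15850 CPM in CTL+LPS and 13430 to 16090 CPM in BLZ945+LPS WT MG. The 8 sdCAM markers summed to 12.76 to 24.95 CPM in CTL+LPS and 7.574 to 19.03 CPM in BLZ945+LPS WT MG, and to 12.28 to 16.68 and 10.44 to 18.6 CPM in Ccr2-/- MG. After BLZ945, Lyve1, Cd163, Folr2 and Cbr2 were at 3 counts or fewer in every WT library, and Lyve1, Cd163 and Folr2 in every Ccr2-/- library. The 8 sdCAM markers had a median sum of 8.271 CPM after BLZ945 and 22.11 CPM after CTL in WT MG. In Ccr2-/- MG the medians were 11.81 and 14.92 CPM, and in both lines the ranges overlapped. Mrc1, 1 of these markers, was itself called lower in WT MG by the contrast that chose the members. No sum without Mrc1 is given. The 8 monocyte markers summed to 83.09 to 106.8 CPM in CTL+LPS and 191.4 to 376.5 CPM in BLZ945+LPS WT MG, of which Fn1 gave 184.7 to 367.5 CPM. Without Fn1 they summed to 6.767 to 14.9 CPM in CTL+LPS and 6.677 to 9.362 CPM in BLZ945+LPS WT MG, and to 15.2 to 18.88 and 9.14 to 13.39 CPM in Ccr2-/- MG. Chil3 was at 3 counts or fewer in every BLZ945+LPS WT library. Astrocyte markers summed to 261.7 to 402.8 CPM in CTL+LPS and 350.1 to 460.5 CPM in BLZ945+LPS WT MG, but to 378.3 to 395.3 and 286.8 to 379.6 CPM in Ccr2-/- MG, and oligodendrocyte markers to 119.9 to 144.1 and 127.6 to 153.6 CPM in WT. The 6 endothelial markers, Pecam1 among them, summed to 24.29 to 47.95 CPM in CTL+LPS and 7.635 to 11.57 CPM in BLZ945+LPS WT MG, and to 24.71 to 33.01 and 9.176 to 11.69 CPM in Ccr2-/- MG, lower after BLZ945 without overlap in both lines. Pecam1 was itself called lower in this contrast in WT MG and lay just outside the rule in Ccr2-/- MG. No sum without Pecam1 is given. The part of the sdCAM, monocyte, astrocyte and endothelial signals in the levels of Apoe, Axl and Lyz2 was not tested. Neutrophil markers summed to at most 12.2 CPM in WT and 15.83 CPM in Ccr2-/- MG, and the 6 lymphocyte markers were at 3 counts or fewer in every library.

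Because MG and sdCAMs were sorted from the same mice, the level in MG could also be given as a percentage of that in sdCAMs of the same mouse. In BLZ945+LPS WT mice this was 4.996 to 9.688% for Apoe, 14.44 to 37.08% for Lyz2 and 37.34 to 251% for Axl, while the summed sdCAM markers stood at 0.1269 to 0.3564%. In BLZ945+LPS Ccr2-/- mice it was 3.263 to 3.981% for Apoe, 8.087 to 18.13% for Lyz2 and 15.52 to 34.77% for Axl against 0.1839 to 0.3031% for the markers. The markers were listed as genes of sdCAMs, so their low percentage in MG follows from that choice. The part of sdCAM RNA in the MG levels of the members was not tested. The ratio of Apoe to Lyz2 counts differed between the cells, at 0.6101 to 1.496 over the MG groups and 2.84 to 8.638 over the sdCAM groups.

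**Figure D2:**
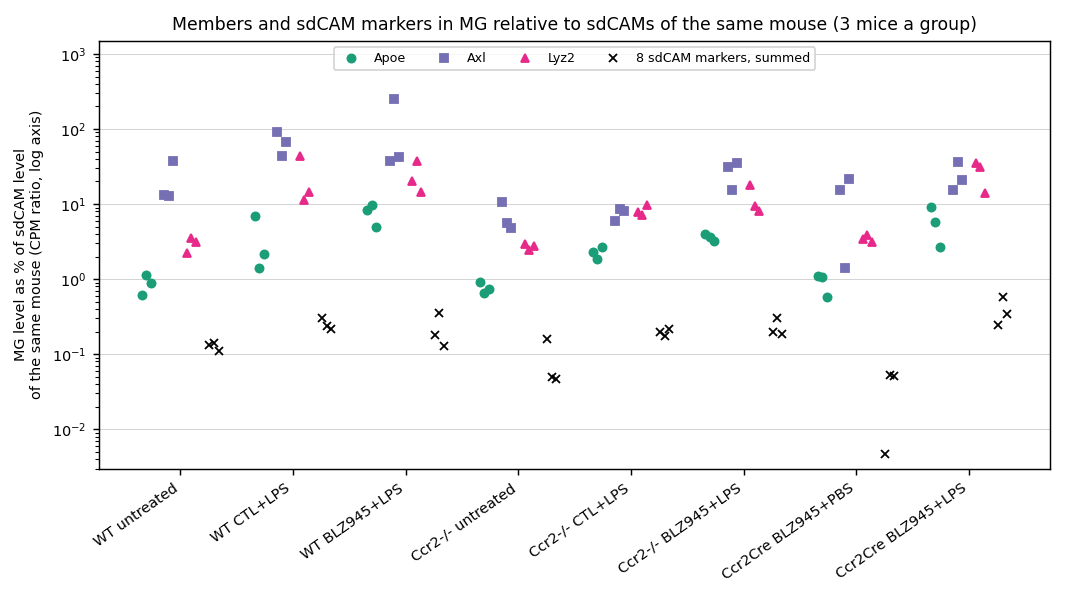
The level in MG as a percentage of the level in sdCAMs of the same mouse (CPM ratio, log axis) is drawn for 3 mice in each of 8 conditions, for Apoe, Axl, Lyz2 and the sum of 8 sdCAM markers; for Ccr2Cre mice the sdCAM level is the mean of tdT+ and tdT- libraries. In every group the members lie above the sdCAM markers, which stay at or below 0.5823%.

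Gene length was examined because libraries amplified from little RNA can favor short or long transcripts. Across genes, the log2 difference between BLZ945+LPS and CTL+LPS MG was weakly related to exon length, with a Spearman rho of -0.1746 in WT and -0.1768 in Ccr2-/- MG, genes not being independent replicates. Apoe (2138 bases of merged exons) and Lyz2 (1316 bases) belong to the shortest of 5 equal length groups and Axl (5033 bases) to the middle one. The shortest group had a median of 0.06 in WT MG, with its 10th and 90th percentiles at -0.49 and 0.58. Apoe and Lyz2 lay above that range, which follows from their choice by a log2 fold change beyond 1 in this contrast. They also lay above the 90th percentile of 0.61 in Ccr2-/- MG, which is a description only, as this contrast too chose the members. The part of length in these differences was not tested.

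Levels at rest were then compared between the lines, in libraries that had played no part in choosing the genes. Untreated Ccr2-/- MG held more Apoe than untreated WT MG, at 392.6, 290.5 and 288.4 CPM against 187.8, 127 and 159.5 CPM. Every Ccr2-/- library lay above every WT library, and the difference was 2.27-fold (log2 difference 1.18, SE 0.144, edgeR adjusted p = 3.08e-05). It remained past the threshold in all alternatives run, with log2 values of 1.02 to 1.33. Lyz2 was higher by 1.69-fold, at 262.4, 198.4 and 210.4 CPM against 148.6, 130.8 and 159.6 CPM (log2 difference 0.76, SE 0.123, edgeR adjusted p = 0.00034). Axl was at 36.07, 20.96 and 14.93 CPM in Ccr2-/- MG, of which only the highest lay within the range of WT MG (21.9 to 51.48 CPM) and the other 2 below it, and did not pass (log2 difference -0.30, SE 0.325, edgeR adjusted p = 0.523). In this comparison 7.61% of 11105 genes were called, and Apoe was the only member past the limit on fold change. The 8 neutrophil markers summed to 86.88 CPM in 1 untreated Ccr2-/- library, to 0 in the other 2 and to at most 0.7641 CPM in WT, and Lyz2, a gene that neutrophils also express, passed without each Ccr2-/- library in turn (log2 values of 0.63 to 0.84). The 8 sdCAM markers summed to 8.669 to 31.41 CPM in Ccr2-/- and 13.37 to 15.2 CPM in WT MG.

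The comparison of the lines was more closely related to gene length, with a Spearman rho of -0.4331 across genes. The shortest length group had a median log2 difference of 0.38 and a 90th percentile of 0.90. Apoe, at 1.18, lay above that percentile and Lyz2, at 0.76, lay within it. The part of length in the difference was not tested. Of the related genes, 1 of 9 Apoe receptors and partners was higher in untreated Ccr2-/- MG, Tyrobp, the adaptor of Trem2 (log2 fold change 1.05, edgeR adjusted p = 9.73e-07), and 2 were lower, Lrp1 (-1.35, edgeR adjusted p = 8.15e-08) and Sorl1 (-1.85, edgeR adjusted p = 9.38e-07). Of 8 tested TAM genes 0 were called, and Abca7 was the only lipid efflux gene of 10 tested (-1.04, edgeR adjusted p = 0.00133). In the disease-associated list 5 of 19 were higher and 0 lower, among them Cd9 (1.10) and Ccl6 (1.18).

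**Figure D3:**
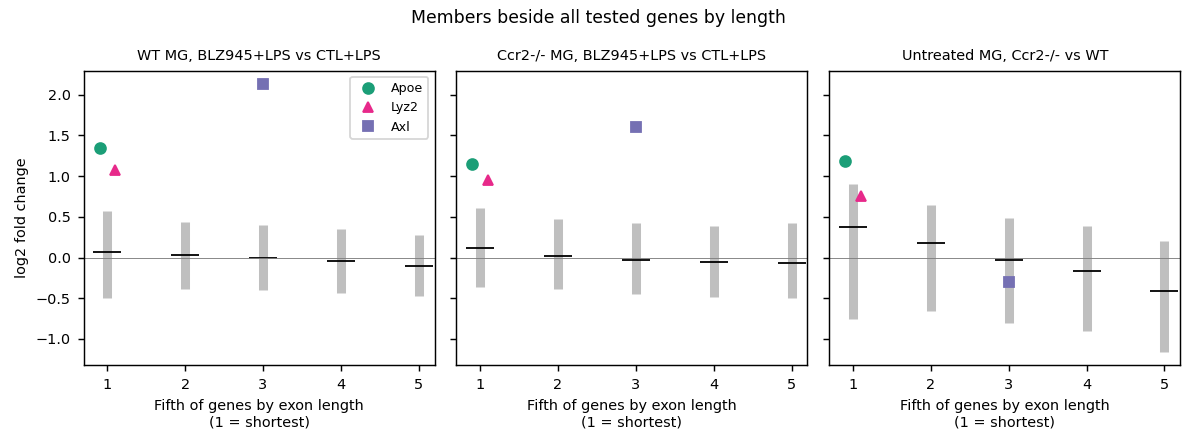
Genes are split into 5 equal groups by exon length, from shortest to longest, and for each the median (line) and the 10th to 90th percentile (gray bar) of the log2 fold change are drawn with the 3 members, in 3 contrasts of MG. Apoe lies above the bar of its length group in all 3, at 1.35, 1.15 and 1.18, while Lyz2 lies within it between untreated Ccr2-/- and WT MG, at 0.76. The contrasts of BLZ945+LPS with CTL+LPS MG chose the genes, so the place of the members there is a description only.

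In Ccr2Cre mice, all of which had been depleted, the MG without LPS could be compared with those after LPS. Apoe stood at 509.1, 493.3 and 286.6 CPM after PBS in mice 174, 175 and 177 and at 623.2, 299.5 and 203.2 CPM after LPS in mice 1, 5 and 7. Lyz2 stood at 462, 452.2 and 469.8 CPM after PBS and at 708.9, 313 and 261.6 CPM after LPS. Axl stood at 143.6, 9.044 and 202.9 CPM after PBS and at 61.35, 34.55 and 53.93 CPM after LPS. The groups overlapped for each gene, and mouse 175 alone held the lowest Axl level of all 54 libraries. No difference passed in edgeR, with log2 fold changes of -0.42 for Apoe (SE 0.542, adjusted p = 0.838), -1.41 for Axl (SE 0.897, adjusted p = 0.584) and -0.33 for Lyz2 (SE 0.485, adjusted p = 0.862), and 1.08% of 10882 genes were called. Without PBS mouse 175 the difference of Axl was -1.95 (edgeR adjusted p = 0.0472), so that its call turns on 1 library. Set side by side, repopulated Ccr2Cre MG after PBS held more Apoe than any BLZ945+LPS WT MG library in 2 of 3 mice and more Lyz2 in 3 of 3. For Axl only mouse 177 lay above those WT libraries (141 to 160.3 CPM), and mouse 175 lay below them. Against BLZ945+LPS Ccr2-/- MG, Apoe went the other way, each Ccr2Cre PBS library lying below their 532.5 to 653.5 CPM. The Ccr2Cre MG belong to another batch and line, and no test was made.

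sdCAMs held far more of the 3 transcripts than MG. In untreated WT mice Apoe stood at 21120, 20360 and 14080 CPM in sdCAMs of mice 9, 14 and 15, 163-fold above MG of the same mice (log2 difference 7.34, SE 0.43, edgeR adjusted p = 0.000131). Lyz2 stood at 4745, 5857 and 4478 CPM, 46.6-fold above MG (log2 difference 5.54, SE 0.325, edgeR adjusted p = 0.000131). Axl stood at 135.5, 165.9 and 198 CPM, 6.68-fold above MG (log2 difference 2.74, SE 0.375, edgeR adjusted p = 0.00456). The groups did not overlap for any member, in a comparison where 17.1% of 11057 genes were called.

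Untreated Ccr2-/- mice gave the same order, with Apoe at 42350, 44210 and 39400 CPM, Lyz2 at 8824, 8120 and 7582 CPM and Axl at 333.9, 375.4 and 314.4 CPM in sdCAMs. The differences from MG were 134-fold for Apoe (log2 fold change 7.07, edgeR adjusted p = 4.47e-09), 37.8-fold for Lyz2 (5.24, edgeR adjusted p = 8.66e-09) and 14.7-fold for Axl (3.88, edgeR adjusted p = 5.4e-06), and 18.1% of genes were called. In Ccr2Cre mice after PBS, tdT+ sdCAMs lay above MG by 106-fold for Apoe and 32.8-fold for Lyz2 (both with an edgeR adjusted p of 3.15e-06) and by 8.56-fold for Axl (log2 fold change 3.10, edgeR adjusted p = 0.0449), with 9.12% of genes called. The call of Axl held in 2 of 6 fits without 1 library, those without MG of mouse 175 or 177 (edgeR adjusted p = 0.000384 and 0.0484), and was lost in the other 4 (edgeR adjusted p = 0.0849 to 0.114). In tdT- sdCAMs the differences were 116-fold for Apoe and 25.9-fold for Lyz2 (both with an edgeR adjusted p of 3.64e-06). Axl differed there by a log2 value of 2.67 and did not pass edgeR's test (SE 0.801, adjusted p = 0.0845), with 7.31% of genes called. Without MG of PBS mouse 175, the library with almost no Axl, that value was 2.13 (edgeR adjusted p = 0.00118).

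Genes of the same pathways did not all follow the members. Pltp, the phospholipid transfer protein, was higher in sdCAMs than in MG by log2 values of 7.76 in WT and 8.46 in Ccr2-/- mice (edgeR adjusted p = 0.000808 and 1.81e-07). Of 8 TAM genes tested, 1 was higher and 5 were lower in sdCAMs in each line. The higher one was Gas6, the ligand of Axl (2.59 and 3.27, edgeR adjusted p = 0.00142 and 1.76e-08). Mertk, another TAM receptor, was lower (-1.33 and -1.47, edgeR adjusted p = 0.0334 and 1.64e-05), a call that in WT held in 2 of 6 fits without 1 library. Lyz1 was at 2.296 to 21.77 CPM in WT sdCAMs and had 0 counts in each of the 3 WT MG libraries, so no fold is given there. In Ccr2-/- mice it stood at 5.662 to 9.242 CPM in sdCAMs and at 1 or 2 counts in each MG library (log2 difference 5.58, edgeR adjusted p = 0.000467).

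On a scale that allows genes to be compared, CPM per kb of merged exons, untreated WT MG held more Lyz2 (111.2) than Apoe (73.93) and least Axl (6.525). After BLZ945 and LPS the order in WT MG was the same, at 262.9, 184.3 and 29.49. In untreated WT sdCAMs the order of the first pair was reversed, with 8662 for Apoe, 3820 for Lyz2 and 33.07 for Axl, as it was in untreated Ccr2-/- sdCAMs, with 19640, 6212 and 67.8. Over the 18 groups the mean level ran from 158.1 CPM in untreated WT MG to 49850 CPM in tdT- sdCAMs after PBS for Apoe, from 23.99 to 957.9 CPM for Axl and from 146.3 to 14820 CPM for Lyz2. In that order, 10 of 17 neighboring pairs of groups overlapped in their libraries for Apoe, 16 of 17 for Axl and 12 of 17 for Lyz2. Single MG libraries exceeded single sdCAM libraries for Axl (up to 202.9 CPM against 49.09 CPM or more) and Lyz2 (708.9 against 435.7 CPM) but not for Apoe.

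In sdCAMs of Ccr2-/- mice, Apoe and Lyz2 were lower after CTL and LPS than in untreated mice. Untreated mice are not labelled as having had the vehicle, so vehicle and LPS cannot be told apart here, nor in WT mice. Apoe stood at 10710, 13670 and 11910 CPM after CTL and LPS, below every untreated library (log2 difference -1.65, SE 0.116, edgeR adjusted p = 6.03e-07). Lyz2 stood at 3078, 3343 and 2863 CPM, also without overlap (-1.25, SE 0.194, edgeR adjusted p = 0.00037). Axl went the other way, at 430.4, 492 and 464.1 CPM, above every untreated library (0.59, SE 0.161, edgeR adjusted p = 0.0159), a rise that stayed under the limit on fold change and had an adjusted p of 0.0666 without CTL mouse V2m and 0.0625 without untreated mouse 5f. In this comparison 21.5% of 11941 genes were called. Of 11 apolipoprotein and lipid efflux genes 5 were lower, among them Pltp (-1.64, edgeR adjusted p = 2.75e-05) and Abca1, the cholesterol exporter (-1.62, edgeR adjusted p = 0.000197), and 1 was higher, Nr1h3, the liver X receptor alpha (3.23, edgeR adjusted p = 0.00232). Of 9 Apoe receptors and partners, Trem2 (-2.78, edgeR adjusted p = 1.14e-06) and Lrp1 (-1.23, edgeR adjusted p = 0.000505) were the 2 called, both lower. Of 8 TAM genes 3 were lower, the ligands Gas6 (-7.08, edgeR adjusted p = 7.9e-06) and Pros1, protein S (-2.06, edgeR adjusted p = 4.65e-07), and Itgb5 (-1.71, edgeR adjusted p = 3.56e-06). Cebpb, a regulator of myeloid genes, was the only lysozyme-related gene called of 7 (3.21, edgeR adjusted p = 2.44e-07). Of 8 microglial markers 5 and of 8 sdCAM markers 6 were called lower after LPS, and of 6 monocyte markers tested 4 were called higher. The 8 neutrophil markers summed to 1.477 to 3.247 CPM in untreated and 59.84 to 92.58 CPM in CTL+LPS mice. Their part in the lower Apoe and Lyz2 was not tested. In bulk libraries, fewer cells of a type and less RNA per cell cannot be told apart.

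In WT sdCAMs the response to LPS depended on the scaling. Apoe stood at 2610, 11950 and 5889 CPM after CTL and LPS, below the 14080 to 21120 CPM of untreated mice, Axl at 49.09, 57.82 and 50.7 CPM and Lyz2 at 435.7, 1383 and 1101 CPM, each gene without overlap. With TMM scaling the log2 fold changes were nevertheless -0.02 for Apoe (SE 1.06, edgeR adjusted p = 0.995), -0.16 for Axl (SE 0.412, edgeR adjusted p = 0.849) and -0.94 for Lyz2 (SE 0.753, edgeR adjusted p = 0.471), and 6.32% of 10504 genes were called. TMM factors were 0.486 to 0.657 in the CTL libraries and 1.25 to 1.93 in the untreated ones. With library totals alone, an alternative added after the data were seen, the values were -1.45 for Apoe, -1.67 for Axl and -2.38 for Lyz2 (edgeR adjusted p = 0.224, 0.0823 and 0.0408), while the median of all genes moved from -0.08 to -1.55. Apoe and Axl thus lay close to the median of all genes under both scalings, and Lyz2 lay below it. The 3 CTL libraries and 2 of the untreated ones carry the IEG mark, and with the mark as a covariate the values were -0.30, -0.08 and -1.12 (edgeR adjusted p = 0.839, 0.933 and 0.222). The 8 neutrophil markers summed to 1.555 to 79.7 CPM in untreated and 129.5 to 1132 CPM in CTL+LPS mice, and their part was not tested. The shortest of the 5 length groups, which holds Apoe and Lyz2, had a median of 0.98 in this comparison (rho of -0.3431 between the difference and length), and the part of length was not tested. Whether the LPS response differed between Ccr2-/- and WT sdCAMs was tested as an interaction, which no member passed (Apoe -1.43, Axl 0.94, Lyz2 -0.11; edgeR adjusted p = 0.311, 0.235 and 0.951), with 2.79% of 12544 genes called.

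**Figure D4:**
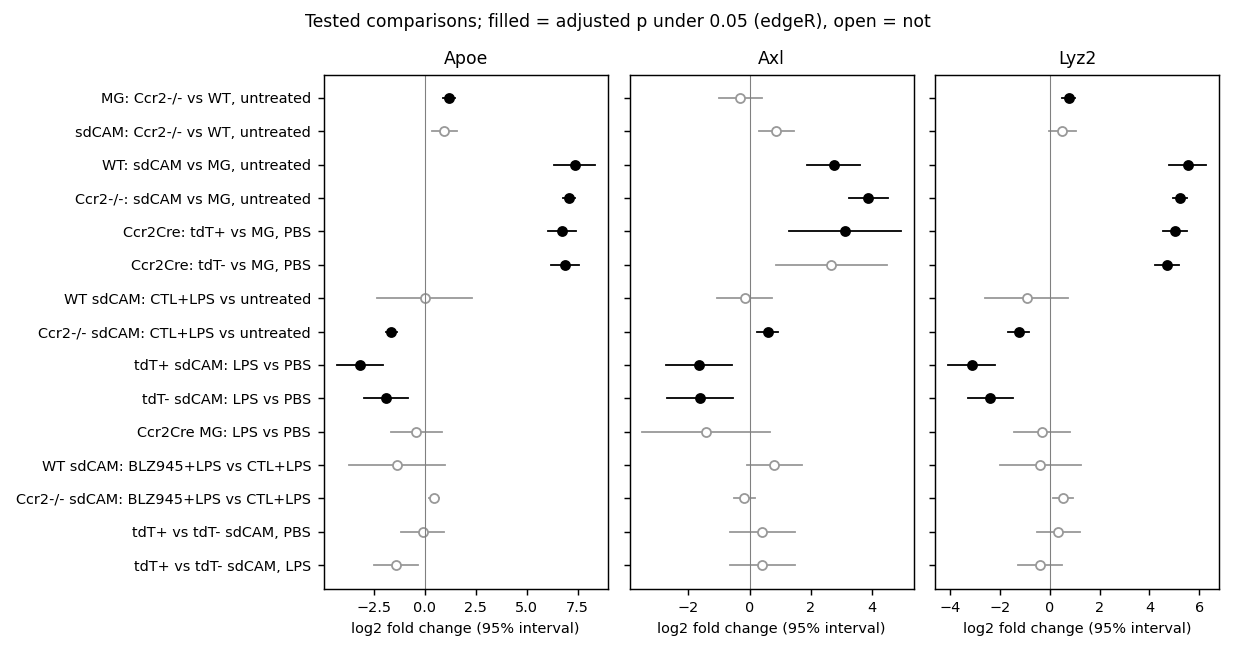
Points are log2 fold changes of Apoe, Axl and Lyz2 with 95% intervals in 15 comparisons that took no part in choosing the genes, filled where the edgeR adjusted p was under 0.05. Apoe and Lyz2 lie to the right in sdCAMs against MG (up to 7.34 and 5.54) and to the left after LPS in Ccr2-/- and Ccr2Cre sdCAMs (down to -3.20 and -3.14), and the WT sdCAM intervals are wide.

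In Ccr2Cre mice, Apoe and Lyz2 were lower with LPS than with PBS in both sdCAM populations. The call of Apoe in tdT- sdCAMs was lost when the libraries of conflicting index number were exchanged. Library depth differed along with treatment. Among tdT+ libraries the deepest LPS library had a total of 5467630, less than the shallowest PBS library (8652557). Among tdT- libraries the same totals were 8751293 and 9182362. The part of depth in the lower levels was not tested. In tdT+ sdCAMs Apoe stood at 43370, 43390 and 47940 CPM after PBS and at 7520, 1815 and 7789 CPM after LPS (log2 difference -3.20, SE 0.538, edgeR adjusted p = 0.00132). Lyz2 stood at 15340, 12540 and 16580 CPM and at 2695, 841.5 and 2374 CPM (-3.14, SE 0.444, edgeR adjusted p = 0.000367). The lowest value of each after LPS belongs to mouse 5, whose library held microglial markers, and without it both genes had a log2 value of -2.78 (edgeR adjusted p = 0.000108 and 3.92e-05). Axl stood at 1112, 811.8 and 949.9 CPM after PBS and at 551.4, 136.6 and 387.2 CPM after LPS (-1.65, SE 0.508, edgeR adjusted p = 0.0424), and lost its call without mouse 5 (-1.26, edgeR adjusted p = 0.0849), without LPS mouse 7 or without any 1 PBS library. In this comparison 13.4% of 12708 genes were called. Of 8 sdCAM markers 4 were called lower, and of 6 monocyte markers tested 3 rose and 1 fell by the same rule. The shortest length group had a median of -0.57 here and of 0.65 in tdT- sdCAMs, with 10th percentiles of -2.73 and -2.42, so that Apoe and Lyz2 lay below that percentile in tdT+ sdCAMs and above it in tdT- sdCAMs.

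In tdT- sdCAMs Apoe stood at 48000, 49490 and 52050 CPM after PBS and at 6206, 8435 and 7249 CPM after LPS (log2 difference -1.91, SE 0.512, edgeR adjusted p = 0.0114). Lyz2 stood at 11470, 10670 and 13640 CPM and at 1388, 1136 and 1340 CPM (-2.40, SE 0.43, edgeR adjusted p = 0.000691). Axl stood at 744.2, 484.4 and 956.3 CPM and at 243.9, 53.36 and 124.9 CPM (-1.63, SE 0.508, edgeR adjusted p = 0.0263), a call lost without LPS mouse 5 or 7 or PBS mouse 174 or 177 (edgeR adjusted p = 0.0532 to 0.0875). In CPM, without TMM scaling, no member overlapped between PBS and LPS in either population, and the share of all genes separating in this way is not given. With library totals the median of all genes was -0.75 in tdT- and 0.28 in tdT+ sdCAMs, against 0.04 and 0.02 with TMM. The separation in tdT- sdCAMs thus includes a shift of many genes on that scale. In tdT- sdCAMs 26.5% of genes were called, among them 6 of 8 microglial and 2 of 8 sdCAM markers, all lower. The 8 neutrophil markers summed to at most 0.1015 CPM after PBS and to 268.5 to 1422 CPM after LPS in tdT- sdCAMs, and to at most 1.399 and 10.97 to 56.79 CPM in tdT+ sdCAMs. S100a8, the 1 of them that was tested, was called higher in both, while 6 of the 8 in tdT- and 7 in tdT+ sdCAMs were at 3 counts or fewer in every library after LPS. Their part in the levels of Apoe, Axl and Lyz2 was not tested. With the 2 libraries of conflicting index number exchanged, Lyz2 passed in tdT+ and tdT- sdCAMs (edgeR adjusted p = 0.00518 and 0.0121), Apoe passed in tdT+ sdCAMs (0.0232) but not in tdT- sdCAMs (0.0688), and Axl passed in neither (0.0959 and 0.0565).

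Gas6 was called lower after LPS in tdT+ (-5.26, edgeR adjusted p = 3.27e-05) and tdT- sdCAMs (-6.21, edgeR adjusted p = 2.54e-06), as were Pltp (-3.50 and -4.06, edgeR adjusted p = 0.000436 and 4.36e-05), Trem2 (-2.74 and -2.60, edgeR adjusted p = 0.00222 and 0.00118) and Lyz1 (-4.91 and -4.68, edgeR adjusted p = 0.0211 and 0.0111). Of 9 TAM genes, 1 was higher and 1 lower in tdT+ sdCAMs and 0 were higher and 5 lower in tdT- sdCAMs. Over all genes 7.54% were higher and 5.82% lower in tdT+ sdCAMs, and 14.5% and 12% in tdT- sdCAMs. Mertk was the higher one in tdT+ sdCAMs (1.16, edgeR adjusted p = 0.0336), a call lost without mouse 5 (1.07, edgeR adjusted p = 0.0685), with the exchange of the 2 libraries (0.76, edgeR adjusted p = 0.403) and in 5 of 6 fits without 1 library. Gas6, Pltp and Trem2 kept their calls in both populations without mouse 5, with the exchange and in each fit without 1 library. Lyz1 lost its call in tdT+ sdCAMs without mouse 5 (-5.22, edgeR adjusted p = 0.0557) and with the exchange (-3.86, edgeR adjusted p = 0.0808), and held in 2 of 6 fits without 1 library in tdT+ and 5 of 6 in tdT- sdCAMs. Of 10 Apoe receptors and partners, 2 were higher and 2 lower in tdT+ sdCAMs, and 1 and 2 in tdT- sdCAMs. Lrp1 was higher in tdT+ sdCAMs (1.39, edgeR adjusted p = 0.0424), a call held in 1 of 6 fits without 1 library. Tyrobp was lower in tdT+ (-1.97, edgeR adjusted p = 0.00192) and higher in tdT- sdCAMs (1.38, edgeR adjusted p = 0.00765).

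The response of MG and sdCAMs of Ccr2Cre mice was compared by an interaction. For Lyz2 the log2 change after LPS was -3.14 in tdT+ sdCAMs and -0.33 in MG. Its interaction was -2.80 (95% interval -4.16 to -1.44, edgeR adjusted p = 0.0425), and Lyz2 was 1 of the 1.04% of 13309 genes called. This call was lost with the mouse as a replicate block (-2.76, edgeR adjusted p = 0.0618) and with the exchange of the 2 libraries (-2.77, edgeR adjusted p = 0.111). It held without tdT+ mouse 5 (-2.48, edgeR adjusted p = 0.0378). The interaction of Apoe was -2.76 (edgeR adjusted p = 0.101), and -2.39 without mouse 5 (edgeR adjusted p = 0.0798). That of Axl was -0.19, and 0.16 without mouse 5, both with an edgeR adjusted p of 1. Between tdT- sdCAMs and MG no member passed (Apoe -1.51, Axl -0.21, Lyz2 -2.09; edgeR adjusted p = 0.296, 0.969 and 0.073), with 4.63% of genes called.

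tdT+ and tdT- sdCAMs did not differ detectably in the 3 genes. After PBS the log2 differences were -0.12 for Apoe (95% interval -1.18 to 0.93), 0.42 for Axl (-0.63 to 1.48) and 0.34 for Lyz2, each with an edgeR adjusted p of 1, and 0.0236% of genes were called. After LPS Apoe differed by -1.41 (SE 0.504, edgeR adjusted p = 0.0905), which DESeq2 called (-1.52, adjusted p = 0.00742), and which was -1 (edgeR adjusted p = 0.878) with the 2 libraries exchanged. Axl differed by 0.41 (edgeR adjusted p = 0.665) and Lyz2 by -0.40 (edgeR adjusted p = 0.598), while 10.6% of genes were called. Without tdT+ mouse 5 the differences were -0.93 for Apoe, 0.85 for Axl and 0.02 for Lyz2 (edgeR adjusted p = 0.083, 0.273 and 0.983). With the 2 libraries exchanged Axl differed by 0.61 and Lyz2 by -0.32 (edgeR adjusted p = 0.937 and 0.987), and edgeR called 0 genes. In the test of the difference between the LPS responses of the populations no member passed (Apoe -1.28, Axl -0.01, Lyz2 -0.74; edgeR adjusted p = 0.336, 1 and 0.529), with 5.17% of genes called. Without mouse 5 these were -0.81, 0.42 and -0.33, and with the exchange -0.88, 0.19 and -0.66, none past the threshold.

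The contrast that chose the genes in MG was also made in sdCAMs, whose libraries had not been used for that choice. In WT sdCAMs after LPS, Apoe stood at 8378, 4476 and 4030 CPM in BLZ945 mice 8, 11 and 12, inside the range of CTL mice. Lyz2 stood at 2643, 1576 and 917.7 CPM, overlapping CTL mice through mouse 12. Axl stood at 336.2, 377.5 and 63.84 CPM, above all CTL libraries, with mouse 12, the marked one, close to them. No member passed (Apoe -1.36, SE 1.08; Axl 0.81, SE 0.414; Lyz2 -0.38, SE 0.748; edgeR adjusted p = 0.758, 0.711 and 0.9). In Ccr2-/- sdCAMs Apoe stood at 14360, 17900 and 16320 CPM, above every CTL library, Lyz2 at 2766, 5226 and 5340 CPM and Axl at 359.3, 508.4 and 355.5 CPM. The log2 fold changes were 0.43 for Apoe (95% interval 0.18 to 0.68, edgeR adjusted p = 0.332), -0.17 for Axl (edgeR adjusted p = 0.829) and 0.52 for Lyz2 (edgeR adjusted p = 0.523). In each line edgeR called 0% of genes, with 758 and 998 genes at an unadjusted p under 0.05 and 11 and 63 calls by DESeq2. The count in WT rests on 1 library and on the scaling, being 788 without the marked library of mouse 12 and 179 with library totals. In the test of the difference of the BLZ945 effect between the lines no member passed (Apoe 1.7, Axl -1.08, Lyz2 0.80; edgeR adjusted p = 0.51, 0.505 and 0.678), with 0% of genes called by edgeR, 1202 at an unadjusted p under 0.05 and 47 called by DESeq2. Without the marked library of WT mouse 12 the values were 2.10 for Apoe (edgeR adjusted p = 0.0296) and -1.31 for Axl (edgeR adjusted p = 0.0332), so that these rest on 1 library, and 1715 genes were called.

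Untreated sdCAMs of Ccr2-/- mice had higher mean levels of the 3 genes than those of WT mice, without passing the test. The log2 differences were 0.95 for Apoe (SE 0.268, edgeR adjusted p = 0.0549), 0.87 for Axl (SE 0.257, edgeR adjusted p = 0.0612) and 0.50 for Lyz2 (SE 0.236, edgeR adjusted p = 0.196), with 10.3% of 11040 genes called. No Ccr2-/- library overlapped a WT library for these genes, and the share of all genes separating in this way is not given. The 8 sdCAM markers summed to 18720 to 19710 CPM in Ccr2-/- and 10150 to 13600 CPM in WT sdCAMs, also without overlap. The 8 microglial markers summed to 4804 to 6874 and 5027 to 14280 CPM. Of the sdCAM markers 2 were called higher in Ccr2-/- mice, and of the microglial markers 4 were called lower. Their part in the levels of the 3 genes was not tested. Without WT mouse 15, the only unmarked library of its group, they were 0.77, 0.94 and 0.39 (edgeR adjusted p = 0.00184, 0.0135 and 0.0474). The count of calls rests on single libraries, being 0, 0 and 1 without Ccr2-/- mouse 1m, 3m and 5f, 80 without WT mouse 14 and 2662 without WT mouse 15. Of related genes, Pltp (1.96, edgeR adjusted p = 0.0212), Gas6 (1.08, edgeR adjusted p = 0.0348) and Pros1 (1.38, edgeR adjusted p = 0.0477) were higher and Lrp1 (-1.70, edgeR adjusted p = 0.0212), Sorl1 (-2.81, edgeR adjusted p = 0.0474) and Abcg1 (-1.78, edgeR adjusted p = 0.0175) lower in Ccr2-/- sdCAMs. Each of these kept its call in 2 of 6 fits without 1 library, and Sorl1 in 1 of 6.

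Over the means of the 18 groups, Apoe and Lyz2 were the closest to each other of 8660 genes averaging 10 CPM or more over the libraries, with a Spearman rho of 0.9773. Next to Apoe came Cbr2 (0.9443), Ms4a7 (0.936), Serpinb8 (0.9291) and H2-Aa (0.9278), of which Cbr2 and Ms4a7 are sdCAM markers and H2-Aa an MHC class II gene. Next to Lyz2 came H2-Ab1 (0.9484), Serpinb8 (0.9375), H2-Aa (0.934) and Stap1 (0.9319). The genes most like Axl were Mcub (0.9546), Cd74 (0.9278), Antxr2 (0.9257), Ifit3 (0.9236) and Lyz2 (0.9133), and Apoe followed at rank 21 (0.87). The 18 means share the contrast between MG and sdCAMs, so these values describe mainly the order of those groups, and no p is given. With TMM scaling Apoe and Lyz2 remained nearest to each other (0.9814), and Antxr2 came first for Axl (0.9628).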

How the data were processed

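RNA of sorted cells was amplified by the authors from picogram amounts with a SMARTer kit, made into Nextera XT libraries and sequenced as single reads. Per the submitters' processing notes, bcl2fastq 2.20, STAR 2.7.11a and featureCounts 2.0.8 were used. The deposited values are whole-number counts per gene symbol without normalization, in 3 tables whose columns were all matched to a library (0 left over). Strand setting was not given in the sources used here, the build was named ambiguously, and no molecular identifiers were used, so duplicates remain in the counts. Titles of Ccr2-/- libraries after LPS name the opposite cell type to their characteristics and library names, and the latter were followed.

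Counts were tested with edgeR 4.0.16 in R 4.3.3 (filterByExpr, TMM, quasi-likelihood, two-sided, Benjamini-Hochberg over all genes). WT and Ccr2-/- fits held the 9 libraries of 1 cell type and line, sdCAMs of Ccr2Cre mice shared a fit of 12, and comparisons across cell types or lines were fitted on the libraries they concern. The members, the pathway and marker lists and the tests were chosen with earlier results of these data known. List genes are named by the smallest p, up to 3 in each direction, and not all that qualified are given, some being not reported here. Fits were tested on simulated data. Replicates are separate mice. MG and sdCAMs of a number come from the same animal per the labels. Their deviations from group means correlated with r of -0.1272 to 0.319 (median 0.1022, 18 pairs), and the paired fit, with the mouse as a replicate block, changed 1 of 27 member values. Alternatives were DESeq2 1.42.0, median-of-ratios factors, the study's low-count rule, omission of each library, the block, the exchange or omission of the 2 libraries with conflicting index numbers, the IEG mark as a covariate, fits of 18 libraries, Lyz1 and Lyz2 summed and, added after the data were seen, library totals in place of TMM. No protein sequence was used here.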

Additional observations from a re-analysis of the deposited data

Results flagged for a closer look

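Of the values tested, 1 was marked for a closer look because the response to LPS differed between cell types by a test of the difference itself. In Ccr2Cre mice, the log2 change of Lyz2 after LPS was -3.14 in tdT+ sdCAMs and -0.33 in MG, and the difference of the responses was -2.80 (95% interval -4.16 to -1.44, edgeR adjusted p = 0.0425). In 3 of 3 tdT+ libraries after LPS, Lyz2 lay below all tdT+ libraries after PBS, while the MG libraries overlapped. The difference kept its direction in every alternative run and lost its call with the mouse as a replicate block (-2.76, edgeR adjusted p = 0.0618), with median-of-ratios factors (-2.70, edgeR adjusted p = 0.057), with the exchange of the 2 libraries of conflicting index number (-2.77, edgeR adjusted p = 0.111), with both left out (-3.01, edgeR adjusted p = 0.0836) and in 7 fits without 1 library (edgeR adjusted p = 0.0604 to 0.116). The lowest Lyz2 level after LPS, 841.5 against 2374 and 2695 CPM, belongs to tdT+ mouse 5, the library that stood apart in its microglial and sdCAM markers, and without it the difference was -2.48 (edgeR adjusted p = 0.0378). Groups of 3 were not screened for outlying values by a test.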

How the results depend on the processing

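Of 806 member values under alternatives, 714 kept their direction and side of the threshold, 37 changed direction, 20 passed anew and 35 lost their call. The cause was not tested. Library totals in place of TMM moved the median of all genes from -0.08 to -1.55 for the LPS response of WT sdCAMs, from 0.07 to 1.41 for their BLZ945 effect, from 0.04 to -0.75 for the LPS response of tdT- sdCAMs, from 0.11 to 1.14 for tdT+ against tdT- sdCAMs after LPS, and from -0.17 to -1.21, 0.18 to 1.30 and -0.11 to -1.35 for the differences of the LPS response between tdT- sdCAMs and MG and of the LPS and BLZ945 effects between lines. With these totals Lyz2 was -2.38 for the LPS response of WT sdCAMs, 0.82 for their BLZ945 effect, 0.62 for tdT+ against tdT- sdCAMs after LPS, 0.30 for the difference of those responses, -3.10 for tdT- sdCAMs against MG in the LPS response, and 0.97 and -0.30 for the differences of the LPS and BLZ945 effects between lines. Axl was 0.44 for the LPS response of Ccr2-/- sdCAMs, -1.42 for tdT+ sdCAMs, 0.96 for the difference of the tdT+ and tdT- responses, 3.02 for tdT+ sdCAMs against MG and 2.11 for the difference of the LPS response between lines. Apoe was -2.58 for the difference of the LPS response between tdT- sdCAMs and MG and 1.17 for untreated Ccr2-/- against WT sdCAMs.

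DESeq2 gave Apoe 0.02 for the LPS response of WT sdCAMs, -1.52 for tdT+ against tdT- sdCAMs after LPS and -2.66 for the difference of the LPS response between tdT+ sdCAMs and MG. It gave Axl 2.68 for tdT- sdCAMs against MG after PBS, 0.02 for the difference of the LPS response between tdT- sdCAMs and MG and 0.82 for untreated sdCAMs between lines, and Lyz2 -1.85 for that response difference of tdT- sdCAMs. Median-of-ratios factors gave 0.02 for Apoe in the LPS response of WT sdCAMs, -1.60 and -1.43 for Axl in that of tdT+ and tdT- sdCAMs, 0.02 for Axl in the response difference of tdT- sdCAMs and MG and -2.70 for Lyz2 in that of tdT+ sdCAMs and MG. The exchange of the 2 libraries gave Axl -1.56, -1.75 and 0.19 for the LPS response of tdT+ and tdT- sdCAMs and their difference, Apoe -2.04 for tdT- sdCAMs and Lyz2 -2.77 for the response difference of tdT+ sdCAMs and MG. With both left out Axl was -1.73 for tdT+ sdCAMs and 0.55 for the difference, and Lyz2 -3.01. The replicate block gave Lyz2 -2.76 for the response difference of tdT+ sdCAMs and MG and, with the exchange, Axl 0.03 for that of tdT+ and tdT- sdCAMs, and changed no other call. The low-count rule gave 0.01 for Axl in the latter and 1.04 for Apoe in untreated sdCAMs between lines, the IEG mark as a covariate 0.03 for Lyz2 in the BLZ945 effect of WT sdCAMs, and 18 libraries in the fit 0.98 for Axl in untreated sdCAMs between lines.

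Without 1 library, Apoe ran from -0.83 to 0.35 for the LPS response of WT sdCAMs (0.35 without CTL mouse 1), from 0.77 to 1.23 for untreated sdCAMs between lines and from 0.87 to 2.10 for the BLZ945 effect between lines. Axl ran from 0.53 to 0.67 for the LPS response of Ccr2-/- sdCAMs, -1.95 to -0.76 for Ccr2Cre MG, -2.12 to -1.26 for tdT+ and -2.29 to -1.34 for tdT- sdCAMs, -0.04 to 1.06 for tdT+ against tdT- sdCAMs after LPS (-0.04 without tdT+ mouse 1), -0.46 to 0.63 for the difference of their responses, 2.55 to 3.78 and 2.13 to 3.35 for tdT+ and tdT- sdCAMs against MG, -0.89 to 0.30 and -0.90 to 0.27 for their response differences from MG (highest without MG mouse 175), -0.71 to 0.18 for untreated MG (0.18 without WT mouse 9), 0.81 to 0.99 for untreated sdCAMs and -1.31 to -0.92 for the BLZ945 effect between lines. Lyz2 ran from -0.69 to 0.08 for the BLZ945 effect of WT sdCAMs (0.08 without CTL mouse 4), -0.69 to 0.02 for tdT+ against tdT- sdCAMs after LPS (0.02 without tdT+ mouse 5), -3.15 to -2.15 for the response difference of tdT+ sdCAMs and MG, 0.39 to 0.65 for untreated sdCAMs and -0.42 to 0.34 for the LPS response between lines (0.34 without WT CTL mouse 4).

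Calls over all genes moved more than 1.5 times under DESeq2 in 14 of 20 comparisons, with 1655 against 664 for the LPS response of WT sdCAMs and 853 against 118 for that of Ccr2Cre MG, under library totals in 7, and under the exchange in 6, with 0 against 1352 for tdT+ against tdT- sdCAMs after LPS. Leaving out 1 library moved it so in 64 fits over 15 comparisons: from 118 to 0 without LPS mouse 1 and 403 without PBS mouse 175 for the LPS response of Ccr2Cre MG, from 1894 to 327 without MG of mouse 15 and 3939 without its sdCAMs for untreated WT sdCAMs against MG, from 664 to 137 without CTL mouse 6 for the LPS response of WT sdCAMs, and from 1134 to 0 without Ccr2-/- mouse 1m or 3m for untreated sdCAMs between lines.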
